A study of Solanum lycopersicum x Solanum pennellii and Solanum lycopersicum with 7 samples.

Results

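Alpha-expansins are secreted proteins of the plant cell wall. They loosen the wall at acidic pH by weakening the contacts between cellulose and the other wall polymers, without cutting them, and so let a growing cell stretch. The family is known for its part in the enlargement of leaf, stem and fruit cells, and its genes differ in the organ and growth stage at which they are used. The 10 tomato genes described here were taken by identifier from a list of alpha-expansin genes, and all 10 were found among the 34725 genes of the count tables. The list was chosen with earlier results of these data known. Of these, 4 lie on chromosome 6 and the remaining 6 lie on chromosomes 1, 2, 3, 4, 9 and 10, as their identifiers give it. The tables do not pair identifiers with gene names, so each gene is called by its identifier and no role is given to a single gene.

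RNA was sequenced from leaves of field-grown tomato introgression lines, IL2-6 with 3 libraries and IL3-2 with 3 libraries. An introgression line carries a segment of a wild species, here Solanum pennellii, in a cultivated tomato background, and these lines are named for segments of chromosome 2 (IL2-6) and chromosome 3 (IL3-2). IL2-6 is labelled as producing more biomass, and IL3-2 has no such label. A library of the cultivated control M82 comes as a list of sequence variants without counts, so neither line was set against its background, and every difference below is between IL2-6 and IL3-2. No label says whether the 3 libraries of a line stem from different plants. The p-values therefore describe the spread among these libraries, part or all of which may be technical. The leaf label was not checked against marker genes. Leaf markers were to be picked by annotation, and fruit and pollen markers, planned by identifier, were not looked up.

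The tables held 18479252 to 21320790 counts per IL2-6 library and 28828109 to 40146308 per IL3-2 library. Levels are in CPM, counts per 1000000 of the library total after scaling with TMM factors, which correct for a few genes taking a large part of the counts. A gene was called different at an adjusted p under 0.05 (edgeR's quasi-likelihood test, Benjamini-Hochberg adjustment over all 20823 genes tested). Log2 fold changes are IL2-6 minus IL3-2. The labels name a single-end and a stranded paired-end library kit but do not assign them to libraries, and of these lines only IL3-2 has lane codes in its labels, so line and library preparation cannot be told apart. In leaf tissue, a lower level per cell and fewer cells that use a gene cannot be told apart either.

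None of the 10 genes was silent in leaf, where silent means no count in any of the 6 libraries. Every gene had counts in all 6 libraries, and the lowest single value was 4 counts, for Solyc10g086520.1 in IL2-6. Whether counts this low reflect use of that gene in IL2-6 leaf was not tested. Of the 10, 8 were lower in IL2-6, 1 was higher and 1 did not pass the test. In 8 genes every IL2-6 library lay below every IL3-2 library, which held for 34.8% of all tested genes, and 9 genes had no overlap between the lines in either direction, against 67.7%. By the test across all genes, 33.0% were called lower and 30.4% called higher in IL2-6. At least 2-fold lower in IL2-6 were 5 of the 10, against 12.1% of all tested genes. One of the lower genes, Solyc10g086520.1, reached the filter on low counts through IL3-2 alone. Of the 9 genes that reached it in both lines, 7 were called lower and 4 were at least 2-fold lower in IL2-6. In 7 of them every IL2-6 library lay below every IL3-2 library, and 8 had no overlap in either direction. The shares above are over all tested genes, and none was computed for genes that reached the filter in both lines. The 10 genes were chosen with earlier results of these data known, so none of these counts is a test of the family. The median log2 fold change of the 10 genes was −0.99, and that of all tested genes was −0.01. The 10 genes together had 237 ± 3.26 CPM in IL2-6 against 385 ± 20.9 CPM in IL3-2 (SD, n = 3 per line), so the sum in IL2-6 was 0.616 times that in IL3-2.

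**Figure D1:**
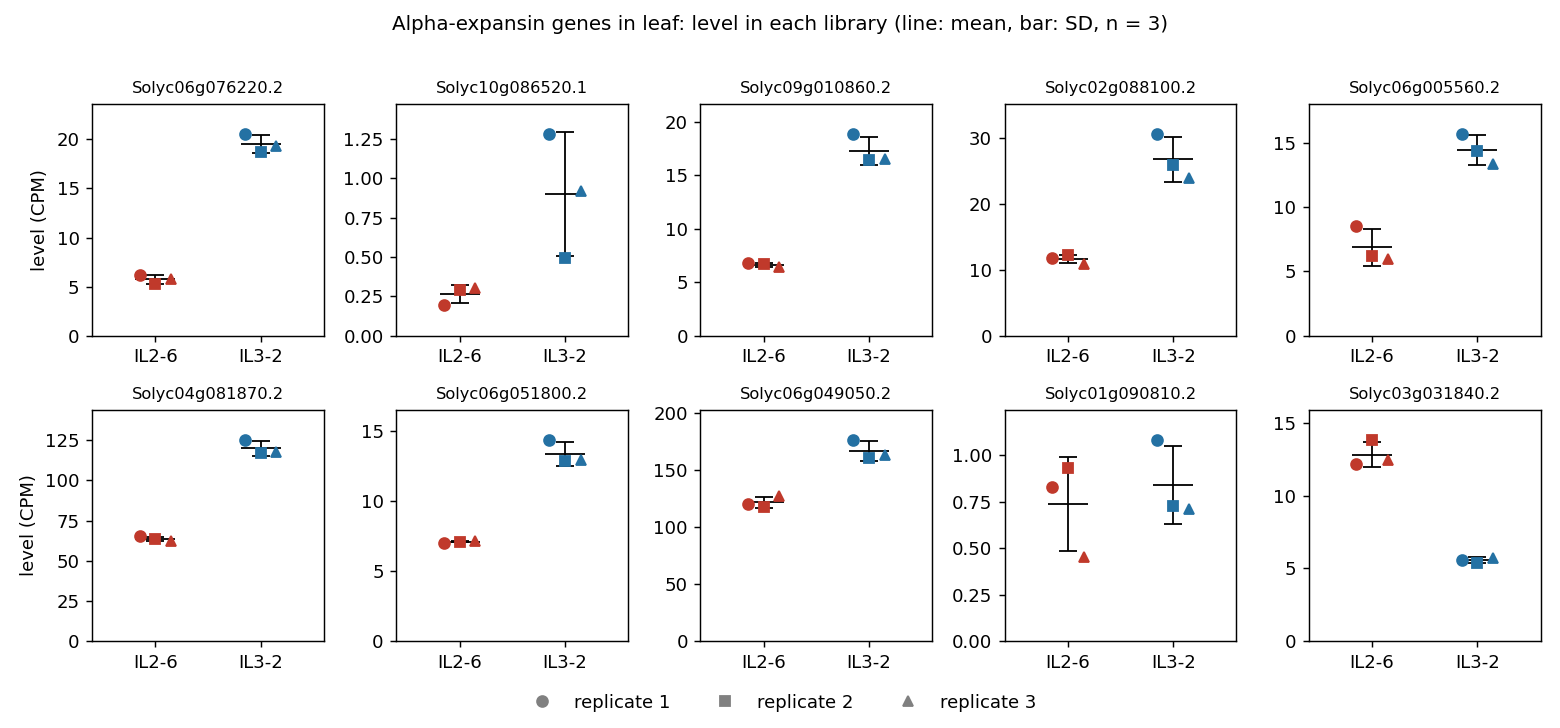
Level in CPM (vertical axis, from 0, scaled for each gene) of the 10 alpha-expansin genes in each library of IL2-6 (red) and IL3-2 (blue); marks are libraries, the horizontal line is the mean and the bar the SD over 3 libraries. In 8 genes every IL2-6 library lies below every IL3-2 library, in Solyc03g031840.2 every IL2-6 library lies above, and in Solyc01g090810.2 the lines overlap.

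The largest difference with ample counts was that of Solyc06g076220.2 on chromosome 6. Its level was 6.22, 5.25 and 5.75 CPM in the IL2-6 libraries, from 127, 90 and 114 counts, against 20.5, 18.7 and 19.3 CPM in the IL3-2 libraries, from 625, 645 and 817 counts. The lines were far apart, and the lowest IL3-2 library was 3.01 times the highest IL2-6 library. The log2 fold change was −1.76 (SE 0.09), which is 3.39-fold lower in IL2-6 (95% interval 2.97 to 3.86, edgeR adjusted p = 4.29e-10). Of all tested genes, 6.01% had a lower log2 fold change than this gene.

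Solyc09g010860.2 on chromosome 9 had 6.76, 6.71 and 6.40 CPM in the IL2-6 libraries, against 18.8, 16.4 and 16.5 CPM in the IL3-2 libraries. Here too the lines did not overlap, and the 3 IL2-6 libraries had an SD of 0.194 CPM. Its log2 fold change was −1.38 (SE 0.09), or 2.60-fold lower in IL2-6 (95% interval 2.28 to 2.97, edgeR adjusted p = 7.41e-09). Solyc02g088100.2, on the chromosome that IL2-6 is named for, had 11.8, 12.2 and 10.9 CPM in the IL2-6 libraries, against 30.6, 25.9 and 23.9 CPM in the IL3-2 libraries. All IL2-6 libraries were lower, and replicate 1 stood highest among those of IL3-2. The log2 fold change was −1.20 (SE 0.09, edgeR adjusted p = 6.32e-08), a 2.30-fold lower level in IL2-6 (95% interval 2.00 to 2.65).

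The remaining chromosome 6 genes differed from each other in how far they lay below IL3-2. Solyc06g005560.2 had 8.52, 6.18 and 5.95 CPM in the IL2-6 libraries, against 15.7, 14.4 and 13.3 CPM in the IL3-2 libraries. Replicate 1 of IL2-6 was the highest of its line and still below every IL3-2 library, and the log2 fold change was −1.06 (SE 0.12, edgeR adjusted p = 2.74e-06). Solyc06g051800.2 had 7.05, 7.11 and 7.16 CPM in the IL2-6 libraries, against 14.4, 12.9 and 12.9 CPM in the IL3-2 libraries. Its IL2-6 libraries were nearly equal and its log2 fold change was −0.91 (SE 0.09), 1.88-fold lower in IL2-6 (95% interval 1.65 to 2.14, edgeR adjusted p = 5.04e-07). The SD of these IL2-6 libraries was 0.73% of their mean, where counting alone gives 8.57%, so their closeness does not measure precision.

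Most of the alpha-expansin counts came from Solyc06g049050.2 and Solyc04g081870.2, and both were lower in IL2-6. Solyc04g081870.2 had 65.2, 63.3 and 62.4 CPM in the IL2-6 libraries, against 125.1, 117.2 and 117.4 CPM in the IL3-2 libraries. The lines were well separated, with a log2 fold change of −0.91 (SE 0.05), 1.88-fold lower in IL2-6 (95% interval 1.74 to 2.03, edgeR adjusted p = 1.69e-09). Solyc06g049050.2 had 120.2, 117.4 and 126.9 CPM in the IL2-6 libraries, against 176.1, 160.0 and 162.6 CPM in the IL3-2 libraries. This was the smallest of the 8 differences that were lower in IL2-6: the lowest IL3-2 library was 1.26 times the highest IL2-6 library. Its log2 fold change was −0.45 (SE 0.05), 1.37-fold lower in IL2-6 (95% interval 1.26 to 1.48, edgeR adjusted p = 4.80e-06).

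The gene that went the other way was Solyc03g031840.2, on the chromosome that IL3-2 is named for. Its level was 12.2, 13.8 and 12.4 CPM in the IL2-6 libraries, from 249, 237 and 247 counts, against 5.58, 5.40 and 5.75 CPM in the IL3-2 libraries, from 170, 186 and 243 counts. The lines did not overlap, and the lowest IL2-6 library was 2.12 times the highest IL3-2 library. The log2 fold change was 1.20 (SE 0.09), 2.29-fold higher in IL2-6 (edgeR adjusted p = 4.28e-08). Of all tested genes, 96.3% had a lower log2 fold change.

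The other two genes had few counts. Solyc10g086520.1 had 4, 5 and 6 counts in the IL2-6 libraries, against 39, 17 and 39 counts in the IL3-2 libraries, or 0.263 ± 0.0586 CPM in IL2-6 against 0.899 ± 0.394 CPM in IL3-2 (SD, n = 3 per line). The lines did not overlap, but the IL3-2 libraries differed among themselves, and replicate 2 was the lowest. Its log2 fold change was −1.75 (SE 0.43, 95% interval −2.68 to −0.82, edgeR adjusted p = 0.00274). It reached the filter on low counts, 0.399 CPM of the raw library total, in 3 libraries of IL3-2 and in 0 of IL2-6, so it entered the test through IL3-2 alone.

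Solyc01g090810.2 had 17, 16 and 9 counts in the IL2-6 libraries, against 33, 25 and 30 counts in the IL3-2 libraries. At 0.740 ± 0.253 CPM in IL2-6 against 0.840 ± 0.211 CPM in IL3-2 (SD, n = 3 per line), the lines overlapped. The log2 fold change was −0.17 (SE 0.31, edgeR adjusted p = 0.640), and its 95% interval, −0.83 to 0.49, leaves room for a difference of the size seen in Solyc06g049050.2.

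**Figure D2:**
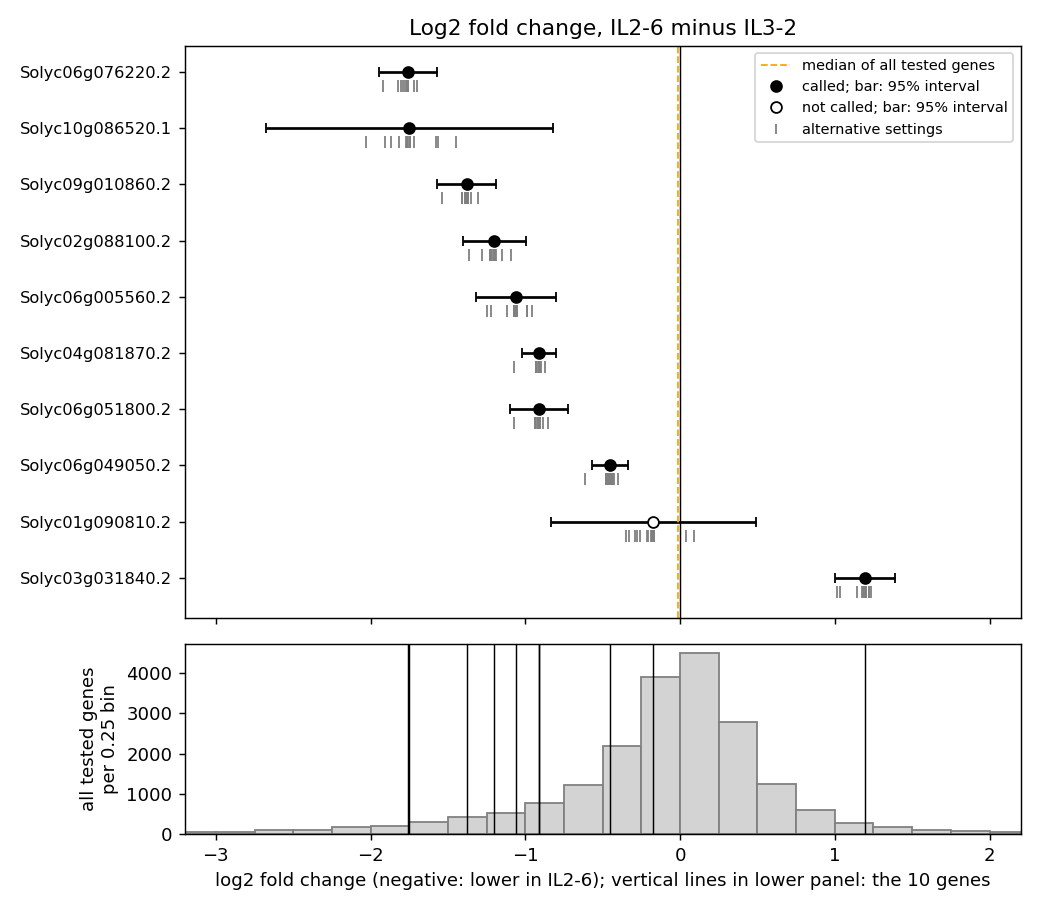
Upper panel: log2 fold change (horizontal axis, IL2-6 minus IL3-2) of each alpha-expansin gene with its 95% interval, filled where called; grey ticks are the values under alternative processing and the dashed line is the median of all tested genes, −0.01. Lower panel: number of all tested genes per bin of log2 fold change, with the 10 genes as vertical lines; 9 lie at or below −0.17 and Solyc03g031840.2 lies at 1.20.

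The differences were not of one size. The 95% interval of Solyc06g076220.2, −1.95 to −1.57 on the log2 scale, overlapped that of Solyc10g086520.1, which is wide at −2.68 to −0.82. It ended at −1.572, and that of Solyc09g010860.2 began at −1.570. As the intervals are approximate, no order can be read between Solyc06g076220.2 and Solyc09g010860.2. The interval of Solyc06g076220.2 lay clear of the rest. From Solyc09g010860.2 at −1.38 to Solyc06g051800.2 at −0.91, intervals of genes next to each other in the order overlapped, and no order can be read between such neighbours. The interval of Solyc06g049050.2, −0.57 to −0.34, lay apart from that of Solyc04g081870.2, −1.02 to −0.80, and from that of Solyc06g051800.2, −1.10 to −0.72. Solyc03g031840.2, at 0.9997 to 1.39, lay apart from all 9 others.

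Ratios of 2 genes within a library show the same without any scaling of libraries. The count of Solyc06g049050.2 was 1.84, 1.86 and 2.03 times that of Solyc04g081870.2 in the IL2-6 libraries, against 1.41, 1.37 and 1.38 times in the IL3-2 libraries. The count of Solyc03g031840.2 was 1.96, 2.63 and 2.17 times that of Solyc06g076220.2 in the IL2-6 libraries, against 0.272, 0.288 and 0.297 times in the IL3-2 libraries. Neither ratio overlapped between the lines, and the second differed 7.88-fold. These pairs were picked after the values had been seen, and the ratios carry no test. They compare the same 2 genes between lines, since without gene lengths the counts of different genes give no order of their levels.

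The make-up of the alpha-expansin counts differed accordingly. Solyc06g049050.2 took 51.3% ± 1.65 of the counts of the 10 genes in IL2-6 and 43.2% ± 0.302 in IL3-2 (SD, n = 3 each). Solyc04g081870.2 took 26.9% ± 0.627 in IL2-6 and 31.2% ± 0.510 in IL3-2. Solyc06g076220.2 took 2.42% ± 0.177 in IL2-6 and 5.08% ± 0.0877 in IL3-2, while Solyc03g031840.2 took 5.42% ± 0.446 in IL2-6 and 1.45% ± 0.0877 in IL3-2. Shares of one total are tied to each other, so a larger share of one gene goes with smaller shares of the rest.

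**Figure D3:**
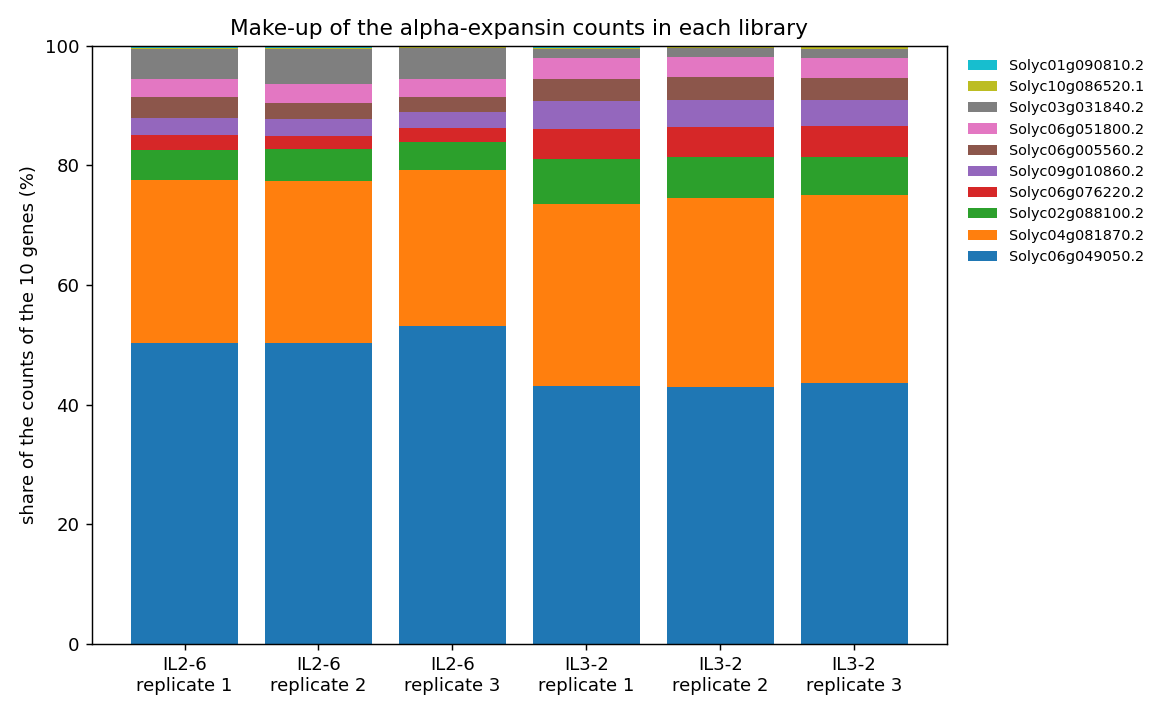
Share of the summed counts of the 10 alpha-expansin genes (vertical axis, percent) taken by each gene in each library, IL2-6 on the left and IL3-2 on the right; counts are not divided by gene length. Solyc06g049050.2 holds 51.3% on average in IL2-6 and 43.2% in IL3-2, and the grey band of Solyc03g031840.2 is wider in IL2-6.

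The spread between libraries of a line was set beside the error that counting alone gives. Solyc06g049050.2 had a coefficient of variation of 4.03% in IL2-6 and 5.17% in IL3-2, where counting alone gives 2.07% in IL2-6 and 1.30% in IL3-2. Solyc09g010860.2 varied by 2.92% in IL2-6 and 7.82% in IL3-2, with counting errors of 8.89% in IL2-6 and 4.04% in IL3-2. Solyc06g005560.2 varied by 20.7% in IL2-6, beyond its counting error of 8.68%, and by 8.12% in IL3-2, with a counting error of 4.42%. The genes with few counts had wide spreads and large counting errors. Solyc10g086520.1 varied by 22.3% in IL2-6 and 43.8% in IL3-2, with counting errors of 44.7% in IL2-6 and 17.8% in IL3-2. Solyc01g090810.2 varied by 34.2% in IL2-6 and 25.1% in IL3-2, with counting errors of 26.7% in IL2-6 and 18.5% in IL3-2.

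Replicate 1 of IL3-2 stood above the other two libraries of its line for 9 of the 10 genes, with a median deviation of 0.11 on the log2 scale from the line mean. Over all tested genes it was the highest of its line in 38.7%. Without it, 8 genes were still called lower in IL2-6 and 1 higher, with log2 fold changes of −1.72 for Solyc06g076220.2, −0.40 for Solyc06g049050.2 and 1.20 for Solyc03g031840.2. In IL2-6 no library led in this way for the 10 genes: replicates 1, 2 and 3 were the highest for 4, 3 and 3 genes. Over all tested genes, replicate 2 of IL2-6 was the highest of its line in 39.2%.

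The surroundings of the genes were described next, since Solyc02g088100.2 and Solyc03g031840.2 lie on the chromosomes the lines are named for. Among the 20 tested genes on either side in identifier order, 9 of 40 were called and at least 2-fold different around Solyc03g031840.2, or 22.5%, with 6 higher and 3 lower in IL2-6. Around Solyc02g088100.2 there were 8 of 40, with 1 higher and 7 lower. Over all tested genes the share was 17.0%, or 3539 genes, and 2520 of these were lower in IL2-6. The richest surroundings were those of Solyc01g090810.2, which itself was not called, with 12 of 40, and the other 7 genes had 4 to 7 of 40.

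A wider window of 100 tested genes on either side separated Solyc03g031840.2 from the rest. There 60 of 200 neighbours differed at least 2-fold, 28 of them higher and 32 of them lower in IL2-6. Around Solyc02g088100.2 it was 33 of 200, with 5 higher and 28 lower in IL2-6. Around Solyc04g081870.2, on neither of these chromosomes, it was 26 of 200, with 4 higher and 22 lower. The share around the 9 genes other than Solyc03g031840.2 was at most 16.5%. The wider window was chosen after the data had been seen and carries no test. Whether Solyc02g088100.2 or Solyc03g031840.2 lies in a wild segment, and how reads of a wild allele were counted, was not tested.

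Each of the 8 genes lower in IL2-6 had at most 6 of its 40 near neighbours below it in log2 fold change, and Solyc03g031840.2 had 35 of 40 below it. Of all tested genes, 6.01% to 23.2% lay below these 8 genes, and 96.3% lay below Solyc03g031840.2. Such ranks therefore largely restate the fold changes and do not set the genes apart from their surroundings. Solyc06g076220.2 had a lower log2 fold change than all 40 of its neighbours, and the tested genes just before and after it had −0.66 and −0.05. The 4 genes of chromosome 6 are not adjacent: 816, 167 and 1429 listed genes lie between them in identifier order.

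**Figure D4:**
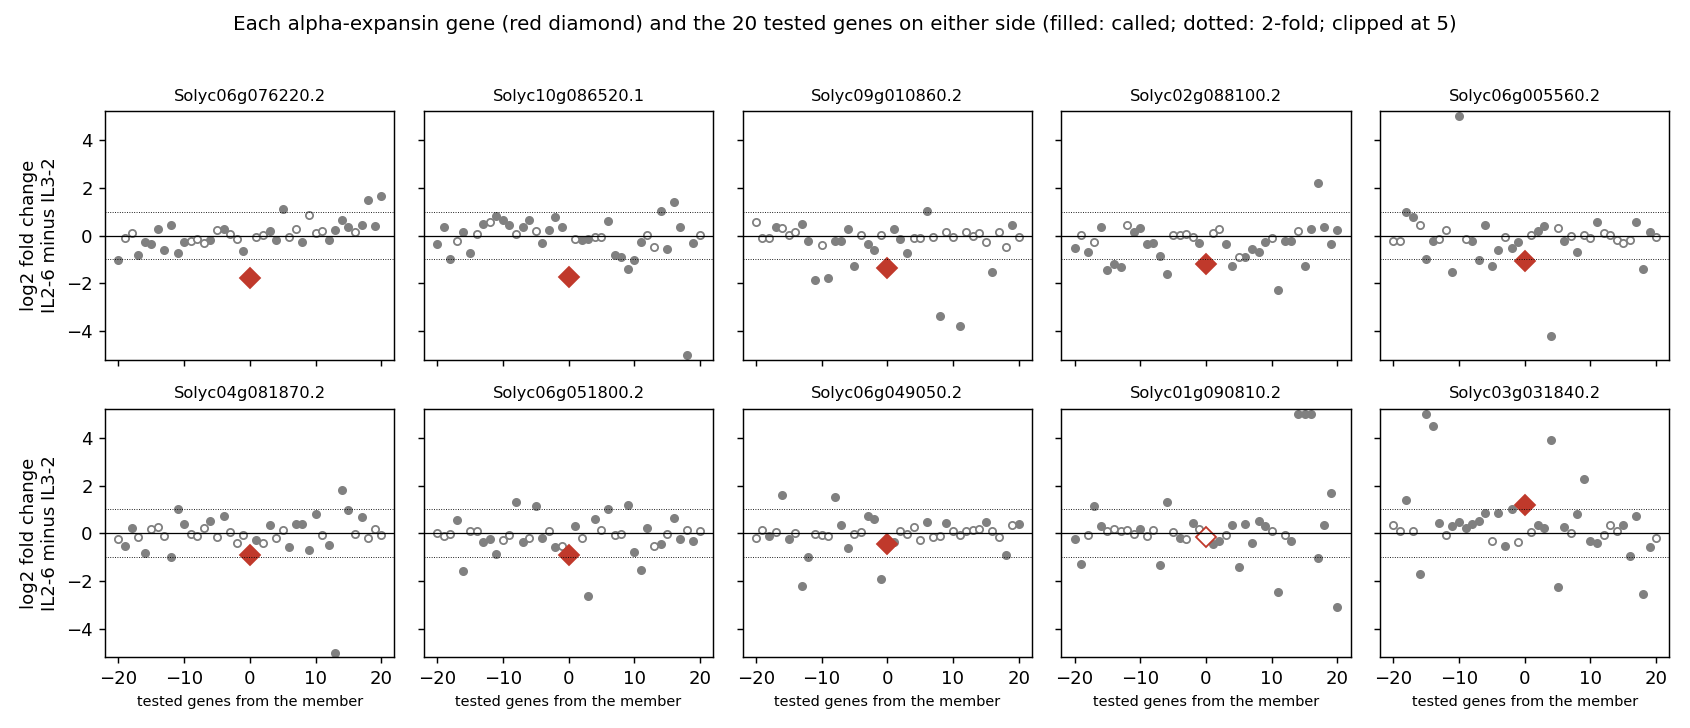
Log2 fold change (vertical axis, IL2-6 minus IL3-2, clipped at 5) of each alpha-expansin gene (red diamond) and of the 20 tested genes on either side, by their distance in tested genes (horizontal axis); filled marks are called and dotted lines mark 2-fold. Solyc06g076220.2 lies below all 40 neighbours, while Solyc03g031840.2 has neighbours far above and far below it.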

How the data were processed

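Leaf RNA of IL2-6 and IL3-2 was analysed from raw gene counts, which the authors deposited as 1 table per library. Among the tools in the submitters' processing notes are HTSeq, TopHat2, Trimmomatic, edgeR, CASAVA 1.8.2 and SAMtools 1.9, with no step assigned to any. Build, annotation and strand setting of the counting were not given in the sources used here, so reads shared by near-identical family members or by genes overlapping on opposite strands are uncertain. The M82 variant list was not used.

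Genes were kept with filterByExpr (20823 of 34725), scaled with TMM and tested with edgeR 4.0.16 (R 4.3.3) in a model of line alone. Standard errors and intervals are approximate and follow from the F statistic. DESeq2 1.42.0 and limma-voom (limma 3.58.1), other scalings and filters, thinning, a replicate block and leaving out each library were alternatives. No pair of libraries of a line agreed within sampling noise (chi-square per degree of freedom 2.33 to 11.2), so none was treated as a library deposited more than once. This does not show that they came from separate plants. The closest pairs were replicates 1 and 3 of IL2-6 (2.69) and replicates 2 and 3 of IL3-2 (2.33), and the other pairs ran from 7.29 to 11.2. All 10 genes were to be named. They were chosen with earlier results of these data known. Lists of other cell wall genes, leaf marker genes, protein and promoter comparisons, levels per coding length and genes of like pattern were planned. They needed an annotation and are not analysed here.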

Additional observations from a re-analysis of the deposited data

How the results depend on the processing

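The 8 lower and 1 higher calls among the alpha-expansin genes were the same in number with 2 other scalings, with raw library totals, without a filter, with DESeq2 and with limma-voom, and stayed at 8 and 1 with each library left out in turn. Over all genes tested, 20781 to 26957, these settings gave from 6148 (DESeq2) to 9559 (raw library totals) lower calls. Higher calls ran from 3977 (raw library totals) to 6698 (no filter). There were 7 lower calls with at least 1 CPM in 3 libraries and 7 after thinning, since Solyc10g086520.1 was then not tested. Over all genes, 6282 of 19124 were lower with that filter and 6212 of 20336 after thinning. Tested against 2-fold with glmTreat, 2 genes were lower and 0 higher (Solyc03g031840.2, adjusted p = 0.0562), and the calls left were Solyc06g076220.2 (1.43e-06) and Solyc09g010860.2 (0.00115). Of all 20823 genes, 1655 were lower and 645 higher by glmTreat. Solyc01g090810.2, never called, ran from −0.35 to 0.092 with a library left out, and changed sign without IL2-6 replicate 3 (0.092) and without IL3-2 replicate 1 (0.038). Raw library totals moved the median of all tested genes by −0.16 (log2) and the split of all calls to 9559 lower and 3977 higher in IL2-6, against 6865 and 6326 with TMM. The median of the alpha-expansin genes was then −1.15, against −0.99 with TMM. Under at most 3 counts over the 6 libraries, 0 genes were silent, and 0 after thinning. Same-numbered libraries did not deviate together (correlations −0.12 to −0.01), and with the number as a replicate block 8 genes were lower and 1 higher. Levels per coding length and the cell wall lists were not run. Low counts limit the precision of Solyc01g090810.2 and Solyc10g086520.1, which had 42 and 15 counts over the IL2-6 libraries.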
